A study of Homo sapiens with 6 samples.

Results

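The BCL2 family genes described here are 10 regulators of mitochondrial cell death in SK-MEL-28, a human cutaneous melanoma cell line. They were chosen by gene name, without use of their values but with earlier results of these data known. Their Ensembl identifiers were looked up in the deposited table of 13449 genes. All 10 were in the table. A total of 4 are pro-survival genes (BCL2, BCL2L1, MCL1 and BCL2A1) and 6 are pro-death genes (BAX, BAK1, BBC3, PMAIP1, BCL2L11 and BID).

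Cells received either an siRNA that targets DANCR, a long noncoding RNA, or a control siRNA without a target, and their polyadenylated RNA was sequenced. There were 3 siDANCR and 3 control libraries, all from the same line, so both groups share its genotype and lipofectamine transfection. The labels do not name the DANCR siRNA used, and they give DMEM as the medium where the study's methods give RPMI. Each gene is described by 1 value, the authors' deposited mean of its normalised counts over the 6 libraries. The table has 0 columns of values per library, so depth and the spread between the 3 replicates of a group are unknown, no SD can be given, and neither the siDANCR and control cells nor the depletion of DANCR itself was compared here. What follows is how high each family gene stood in this line over both groups together, with no test.

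BCL2 proteins decide whether the outer mitochondrial membrane stays intact. The effectors BAX and BAK1 form pores in it that release cytochrome c and start the caspase cascade. Pro-survival proteins hold the effectors in check through a groove on their surface. BH3-only proteins, here the products of BBC3, PMAIP1, BCL2L11 and BID, carry a short helix, the BH3 domain, that occupies this groove or acts on the effectors directly. In the melanocyte lineage BCL2 and BCL2A1 are known targets of the transcription factor MITF.

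The helix that links these classes is shown here as DNA because most members share it whatever their role. A pattern of 6 codons was searched in the reading frame of the canonical transcript (GENCODE v44 lifted to GRCh37). It consists of a leucine codon, 3 free codons, a glycine or alanine codon and an aspartate codon. The pattern occurred once in 9 of the 10 members and was not matched in BCL2A1. It is short and not particular to the family, occurring in 27.8% of 11275 coding transcripts of the table, and in 13.3% of the 3726 transcripts with 54 to 350 codons, the range of the members. Each stretch of 30 bases is written on the coding strand, with the leucine, glycine or alanine, and aspartate codons in capitals and GRCh37 positions beside the name.
BCL2 (chr18:60985588-60985617, minus strand): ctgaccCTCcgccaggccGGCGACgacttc
BCL2L1 (chr20:30309731-30309760, minus strand): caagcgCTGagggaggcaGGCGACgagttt
MCL1 (chr1:150551347-150551376, minus strand): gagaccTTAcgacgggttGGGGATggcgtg
BAX (chr19:49459038-49459067, plus strand): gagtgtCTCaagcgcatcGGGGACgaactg
BAK1 (chr6:33543170-33543199, minus strand): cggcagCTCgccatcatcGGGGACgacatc
BBC3 (chr19:47729842-47729871, minus strand): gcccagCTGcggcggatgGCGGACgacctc
PMAIP1 (chr18:57569899-57569928, plus strand): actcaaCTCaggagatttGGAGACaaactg
BCL2L11 (chr2:111907674-111907703, plus strand): caagagTTGcggcgtattGGAGACgagttt
BID (chr22:18222187-18222216, minus strand): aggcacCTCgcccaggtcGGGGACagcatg
The fifth codon of the pattern was a glycine codon in 8 of these genes and the alanine codon GCG in BBC3. Every stretch lay within 1 coding exon. The reading frames differed widely in size around this shared stretch, from 54 codons in PMAIP1 to 350 codons in MCL1.

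The pro-survival genes BCL2A1 and MCL1 had the highest levels of the family per kilobase of canonical transcript, and BCL2, which gave the family its name, had the lowest. Unless another length is named, levels per kilobase are mean normalised counts divided by the length of the canonical transcript, and a count given without "per kilobase" is not corrected for length. The median over all 13029 genes with such a length was 111.6 per kilobase. A total of 7 members lay above it, while PMAIP1, BID and BCL2 lay below. The member median was 212.4 per kilobase, the median percentile of the members was 68.8, and the highest member, BCL2A1, stood 19.2 times above the lowest, BCL2. BCL2A1 over BCL2 was 2.98 with the coding length, 27.6 with all exons merged and 29.1 with read positions inside 1 exon. This pair did not hold the extremes under each length. With the coding length the highest was MCL1 at 2228 and the lowest BID at 268.5 per kilobase. With read positions inside 1 exon the highest was BAX at 2987 and the lowest BCL2 at 67.6 per kilobase.

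**Figure D1:**
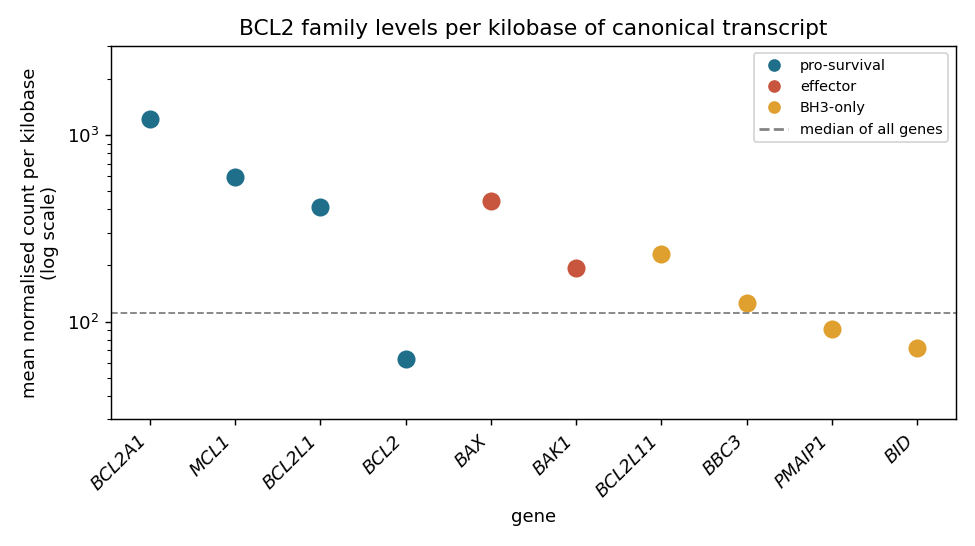
Mean normalised count per kilobase of canonical transcript (vertical axis, log scale) of the 10 BCL2 family genes (horizontal axis), grouped by role, each point being the authors' mean over all 6 libraries without an error. BCL2A1 stands highest at 1215 and BCL2 lowest at 63.2 per kilobase, and the dashed line marks the median of all genes at 111.6.

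Among the pro-survival genes, BCL2A1 (ENSG00000140379, chromosome 15, 80253234 to 80263538 on GRCh37) encodes a small protein known as BFL-1 or A1. Its mean normalised count was 947.6 on a transcript of only 780 bases, which made 1215 per kilobase, at percentile 95.7 of all genes. MCL1 (ENSG00000143384, chromosome 1, 150533371 to 150552214), whose product is rapidly degraded and therefore depends on continued synthesis, had the highest mean normalised count of the family, 2339, and 592.2 per kilobase, at percentile 89.6. BCL2A1 thus stood 2.05 times above MCL1 per kilobase of canonical transcript, but the order of the pair turned with the coding length, where BCL2A1 over MCL1 was 0.810. Both were among the first 3 of the 10 members under each of 4 lengths. These were the canonical transcript, all exons of the gene merged, the coding length, and the number of positions at which a read of 150 bases lies inside 1 exon. The reads were paired per the study's methods, and the processing notes of the submitters name a trimming tool. The last of these lengths treats 1 untrimmed read on its own, so it describes neither read pairs nor shortened reads.

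BCL2L1 (ENSG00000171552, chromosome 20, 30252255 to 30311792) encodes BCL-xL and, by alternative splicing, a shorter pro-death form that gene-level values do not separate. It had a mean normalised count of 1062 and 412.6 per kilobase, at percentile 84.2. BCL2 (ENSG00000171791, chromosome 18, 60790579 to 60987361) had a mean normalised count of 434.8 on a transcript of 6881 bases, which made 63.2 per kilobase, at percentile 33.2. BCL2 therefore stood well below the other 3 pro-survival genes. BCL2L1 was 6.53 times and MCL1 9.37 times above it per kilobase, and these folds were 2.51 and 3.67 when the coding length was used, the smallest over the 4 lengths.

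Of the effectors, BAX (ENSG00000087088, chromosome 19, 49458072 to 49465055) had a mean normalised count of 352.5 and 443.4 per kilobase, at percentile 85.4. BAK1 (ENSG00000030110, chromosome 6, 33540324 to 33548070) had a mean normalised count of 422.8 and 194.8 per kilobase, at percentile 66.5. Which of the pair stood higher depended on the length used. BAX over BAK1 was 2.28 with the canonical transcript, 9.48 with read positions inside 1 exon, 0.713 with all exons merged and 0.916 with the coding length. BAK1 also has processed pseudogenes that resemble its transcript, and 1 of them, BAK1P1, was itself in the table with a mean normalised count of 114.6, so reads of both loci may have been split and the BAK1 value is uncertain.

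The BH3-only genes ranged from 72.2 to 230.0 per kilobase, overlapping the effectors, of which BAK1 stood at 194.8. With the coding length they ranged from 268.5 to 1974, on both sides of BAX at 611.9 and BAK1 at 667.9. BCL2L11 (ENSG00000153094, chromosome 2, 111876955 to 111926021), which encodes BIM, had a mean normalised count of 1172 and 230.0 per kilobase, at percentile 71.1. BIM binds all pro-survival proteins of the family. It stood highest of the 4 BH3-only genes under each of the 4 lengths.

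BBC3 and PMAIP1 encode PUMA and NOXA, known as targets of p53. BBC3 (ENSG00000105327, chromosome 19, 47724079 to 47736023) had a mean normalised count of 233.1 and 126.3 per kilobase, at percentile 53.5. PMAIP1 (ENSG00000141682, chromosome 18, 57567228 to 57571537) had a mean normalised count of 172.6 and 90.9 per kilobase, at percentile 43.5. Their order turned with the length, BBC3 over PMAIP1 being 1.39 with the canonical transcript and 0.378 with the coding length. NOXA binds MCL1 and BFL-1 in particular. Both of these partners stood above PMAIP1 under every length used, with MCL1 6.51 times and BCL2A1 13.4 times higher per kilobase of canonical transcript, and 2.09 and 1.69 times higher per kilobase of coding length.

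BID (ENSG00000015475, chromosome 22, 18216904 to 18257536) is cut by caspase 8 and so links death receptors to mitochondria. It had the lowest mean normalised count of the family, 157.1, and 72.2 per kilobase, at percentile 37.0. The lowest count of the family was still 6.80 times the lowest in the table, 23.1, so no member lay near the table's floor.

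**Figure D2:**
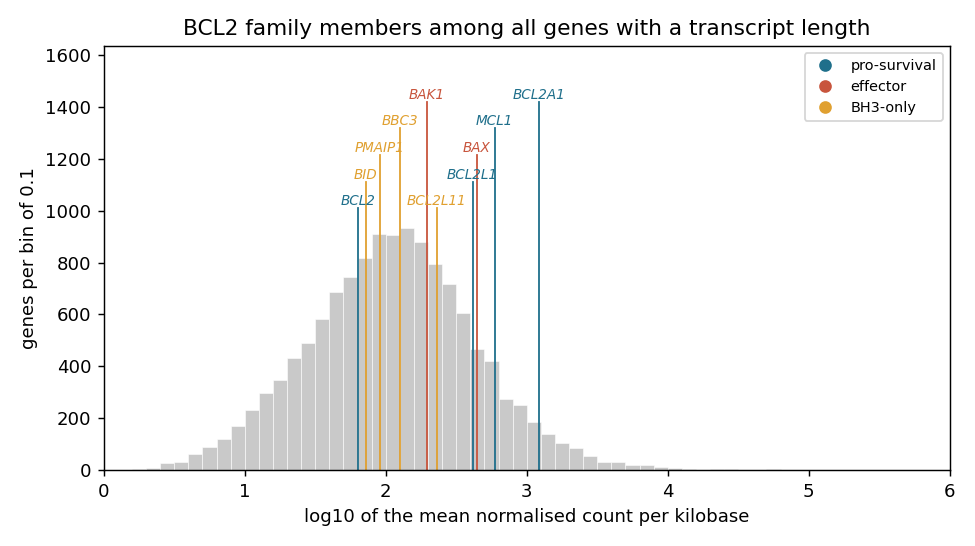
Number of genes (vertical axis) by log10 of the mean normalised count per kilobase (horizontal axis, bins of 0.1) over the 13029 genes with a transcript length, with a line for each family member in the colour of its role. The lines of 7 members lie above the median of all genes, and those of PMAIP1, BID and BCL2 lie below.

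Set side by side as classes, pro-survival transcripts summed to 2283 per kilobase and pro-death transcripts to 1157, a ratio of 1.97. The classes overlapped gene by gene, with pro-survival levels of 63.2 to 1215 and pro-death levels of 72.2 to 443.4 per kilobase, and members are not replicates of a class, so this ratio has no test. It rested on BCL2A1, which alone made 35.3% of the summed level of all 10 members, and without BCL2A1 the ratio was 0.923. With read positions inside 1 exon as the length the ratio also turned, to 0.807. The class medians were 502.4 and 160.5 per kilobase. The median was higher in the pro-survival class under each of the 4 lengths, by 2.60 to 3.13 times.

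Within the pro-death class, BH3-only genes summed to 519.3 and effectors to 638.2 per kilobase, a ratio of 0.814. This order was not stable. The ratio was 1.10 with all exons merged and 2.90 with the coding length, and 2.67 without BAX and 1.17 without BAK1.

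**Figure D3:**
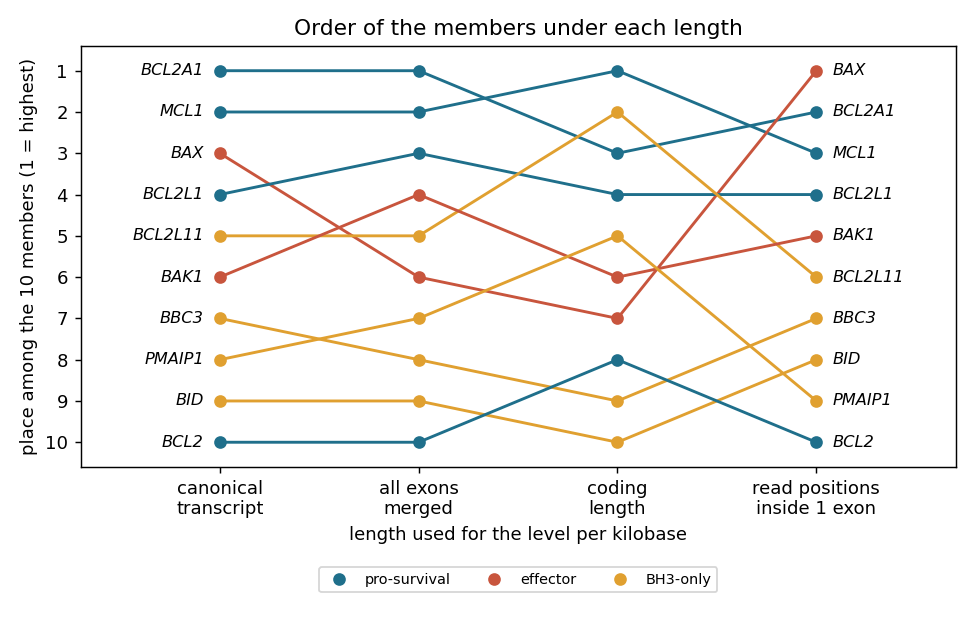
Place of each of the 10 members by level per kilobase (vertical axis, 1 being the highest) under each of 4 lengths (horizontal axis), with lines coloured by role. BCL2A1 and MCL1 keep to places 1 to 3 and BCL2 to places 8 to 10, whereas BAX ranges over places 1 to 7.

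The canonical transcripts of the members differed in structure. The coding sequence made up 72.5% of the BAX and 67.3% of the BCL2A1 canonical transcript, against 8.53% in PMAIP1, 10.4% in BCL2 and 11.7% in BCL2L11, with a median of 47.7% over all coding transcripts. BAX has 6 exons, of which 1 is at least as long as a read of 150 bases, and 18.3% of its possible read positions lie inside 1 exon. The corresponding share was 95.6% in BCL2 and 69.6% in the median gene. The aligner named in the processing notes does not split reads over introns, and no source used here tells how reads across exon junctions were treated. Counted per kilobase of read positions inside 1 exon, BAX stood at 2987, from 118 positions. Which length fits the counting could not be settled from the table.

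GC content of the canonical transcripts ranged from 36.7% in PMAIP1 to 69.7% in BBC3, which lies at percentile 99.6 of all genes, against a median of 47.9%. Its part in the levels was not tested. Some members also overlap other genes. An antisense lncRNA, ABALON, covers 36.7% of the BCL2L1 canonical transcript and is not among the rows analysed here. MIR4435-2HG, in the table with a mean normalised count of 798.3, covers 14.3% of that of BCL2L11 on the opposite strand. GGNBP1, a transcribed unitary pseudogene, covers 4.19% of that of BAK1 on the opposite strand and is not among the rows analysed here. The libraries were strand-marked, but no source used here tells whether reads were counted by strand. The values of BCL2L1, BCL2L11 and BAK1 may thus include antisense reads.

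Other genes of the same machinery gave a scale for these levels. Of 14 further BCL2 family genes, 9 were in the table, from 38.9 to 513.9 per kilobase with a median of 272.6. The highest were BCL2L13 at 513.9, BOK, an effector-like member, at 379.2, the mitophagy receptor BNIP3L at 342.0 and BCL2L2, which encodes the pro-survival protein BCL-w, at 314.5 per kilobase. Per kilobase of canonical transcript BCL2A1 and MCL1 stood above all 9 of them, but with the coding length BCL2A1 at 1805 lay below BCL2L2 at 1915, and with read positions inside 1 exon MCL1 at 667.7 lay below BCL2L12 at 745.2. BCL2L10, BIK, BCL2L14, BCL2L15 and the read-through gene BCL2L2-PABPN1 were not among the rows analysed here.

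Downstream of the mitochondrion, 15 of 16 genes of caspase activation were in the table, with a median of 93.0 per kilobase. BIRC7, which encodes the inhibitor of apoptosis livin, stood at 1798, the cytochrome c gene CYCS at 759.6, the survivin gene BIRC5 at 735.7 and the mitochondrial nuclease gene ENDOG at 229.4 per kilobase. Per kilobase of canonical transcript BCL2A1 lay below BIRC7 alone of this list, while with the coding length BCL2A1 at 1805 lay below CYCS at 13099 and BIRC5 at 4445 as well. BIRC3 was not among the rows analysed here. Genes of mitochondrial pore and membrane partners stood higher as a list, all 8 being in the table with a median of 924.5 per kilobase. The voltage-dependent channel gene VDAC1 stood at 3515, PPIF at 1381, TSPO at 1343 and the fusion gene MFN2 at 1314 per kilobase.

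Of 11 genes of the death receptor arm that acts through BID, 7 were in the table, with a median of 314.1 per kilobase. The adaptor FADD stood at 407.3, the TRAIL receptor TNFRSF10B at 368.6, the TNF receptor TNFRSF1A at 363.1 and CASP8 at 314.1 per kilobase. These highest 4 lay above BID at 72.2, and CFLAR, which encodes an inhibitor of caspase 8 activation, lay below it at 40.9 per kilobase. The order of CFLAR and BID turned with the coding length, where CFLAR stood at 415.1 and BID at 268.5. FAS, CASP10, TNFRSF10A and TNFRSF10D were not among the rows analysed here.

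**Figure D4:**
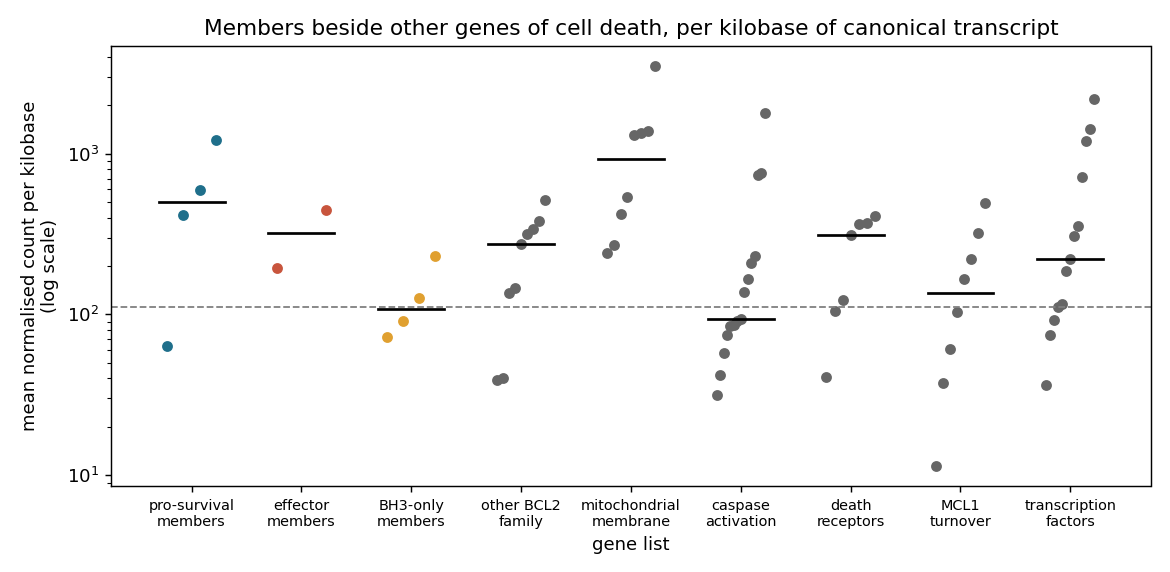
Mean normalised count per kilobase of canonical transcript (vertical axis, log scale) of single genes (points) in the member classes and in 6 other lists (horizontal axis), with a black bar at each list's median and a dashed line at the median of all genes. Medians run from 93.0 for caspase activation to 924.5 for the mitochondrial pore and membrane partners (labelled mitochondrial membrane). The pro-survival members lie between at 502.4.

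The labelled cell type was checked against markers of melanocytes. Of 8 such markers, 7 were in the table, from 1219 to 11535 per kilobase, with PMEL, SOX10, S100B and DCT the highest and TYRP1 not among the rows analysed here. Of 5 markers each of keratinocytes, fibroblasts and leukocytes and 4 of endothelium, 1 each was in the table, namely KRT10 at 134.7, LUM at 241.6, CD68 at 39.8 and VWF at 2.75 per kilobase. KRT10 and LUM lay above the median of all genes, 111.6 per kilobase, and CD68 and VWF below it. Another endothelial marker, PECAM1, could not be matched to an identifier and was not looked up.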

How the data were processed

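Per the processing notes of the submitters, the tools were Trim Galore 0.4.4, Bowtie 1.1.2 and DESeq2, and the genome build was hg19 (GRCh37). The counting tool, the annotation and the use of strand were not given in the sources used here. The authors deposited 2 sheets. From the larger one the mean normalised count over all 6 libraries was used, a signal that, per the file headers, the authors' DESeq2 run scaled by size factors. Its lowest value was 23.1, its median 322.5 and its sum over genes 15059759. The 5 other columns hold the authors' own comparison (log2 fold change, SE, test statistic, p-value and adjusted p-value of siDANCR against control) and were not used, nor was the smaller sheet, whose genes that comparison selected. Depth per library is unknown, so no interval was computed.

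Gene identifiers were matched to GENCODE v44 lifted to GRCh37 without version numbers, and 13161 of 13449 were named. A level per kilobase is the mean divided by the length of the canonical transcript. A percentile is the share of the table's genes at or below a level, and per kilobase it covers the 13029 genes with a length. No row had a mean below 23.1, so percentiles are ranks within the table and not among all genes of the genome. Alternatives were the merged exons of a gene, the coding length, the number of positions at which a read of 150 bases lies inside 1 exon, no division by length, class medians, omission of single members, and percentiles among 11423 protein-coding genes or among the 11877 genes whose mean was 50 or more. The members, lists and alternatives were chosen with earlier results of these data known. Named were all members and, of each other list, the absent genes and up to 4 genes in order of level per kilobase. The genes BAK1P1, ABALON, GGNBP1, MIR4435-2HG, BCL2L12 and CFLAR and the markers found outside the melanocyte list were named after their values were seen. They were named for their likeness to or overlap with members, their place beside a member or as the single marker present. Calculations used Python 3.11.15, pandas 2.3.3 and numpy 2.4.6, and plots used matplotlib 3.10.9. The division by length was also run on simulated means built from the same lengths without noise. It returns the simulated levels by construction, so it checked the arithmetic alone.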

Additional observations from a re-analysis of the deposited data

How the results depend on the processing

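No paired analysis was possible because the table carries no values per library, and for the same reason no library could be left out and no normalisation or count filter changed. The pro-survival over pro-death ratio of summed levels, 1.97 per kilobase of canonical transcript, was 2.35 with all exons merged, 1.23 with the coding length, 0.807 with read positions inside 1 exon, 1.91 without division by length and 3.13 as a ratio of class medians. Leave-one-out of the 10 members gave 0.923 (without BCL2A1) to 3.20 (without BAX), and the ratio fell below 1 in 1 of the 10 omissions. The BH3-only over effector ratio of 0.814 became 1.10, 2.90, 0.200, 2.24 and 0.340 under the same 5 alternatives in the same order. Leave-one-out of its 6 members gave 0.453 (without BCL2L11) to 2.67 (without BAX), with 1.17 without BAK1, the other omission that took it above 1. By count alone the median percentile of the members was 57.7 among all genes, 52.8 among protein-coding genes and 52.1 among genes whose mean was 50 or more. The median member level of 212.4 per kilobase was 155.1 with all exons merged, 866.7 with the coding length and 286.4 with read positions inside 1 exon. The coding length raises genes with long noncoding parts and the count of read positions raises genes with short exons, by construction.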

Other observations

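Transcription factors known for control of family genes were all in the table, 13 of 13, with a median of 220.8 per kilobase of canonical transcript. MITF stood highest at 2179, followed by ATF4, a factor of the amino acid stress response, at 1425, MYC at 1200 and E2F1 at 715.1 per kilobase. Of 8 genes linked to the turnover of the MCL1 protein, all were in the table, with a median of 135.2. The ERK phosphatase DUSP6 stood at 491.2, the kinase GSK3B at 320.0, the ubiquitin ligase HUWE1 at 220.5 and the deubiquitinase USP9X at 166.9 per kilobase. MCL1 itself, at 592.2 per kilobase of canonical transcript, lay above all 8, but not under each length. With all exons merged MCL1 stood at 375.9 and DUSP6 at 461.7, and with read positions inside 1 exon MCL1 stood at 667.7 and HUWE1 at 777.3. These are levels over both groups together, and relations between them and the members were not tested.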
